A study of Mus musculus with 4 samples.

Results

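The adherens junction genes examined here were 5 classical cadherins (Cdh1, Cdh2, Cdh3, Cdh5 and Cdh11) and 4 catenins (Ctnna1, Ctnna2, Ctnnd1 and Ctnnd2) of the mouse. Their regulatory surroundings were taken as every accessible region of the series that shared at least 1 base with the RefSeq bounds of the gene extended by 50 kb on either side, and 128 of the 74777 regions of the series met this rule. The 9 windows together held 131 entries, because 3 regions lay in the windows of both Cdh1 and Cdh3, which are tandem neighbours on chromosome 8. The rule itself uses gene bounds and no measured value, but the genes were picked with earlier results of these data known.

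Classical cadherins are transmembrane proteins that bind like molecules on the next cell through their extracellular repeats, in a manner that needs calcium. Their cytoplasmic tails hold catenins: a delta-catenin near the membrane, which keeps the cadherin at the surface, and beta-catenin or plakoglobin further on, to which alpha-catenin is joined as the link to actin filaments. In skin epithelium E-cadherin (Cdh1) is the general epithelial form, and P-cadherin (Cdh3) is found in basal and hair follicle cells. In the hair follicle, adhesion between the cell layers of the bulge anchors the stem cell niche.

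Accessibility was profiled by ATAC-seq, where Tn5 transposase cuts and tags open DNA. The cells were hair follicle stem cells from back skin of female mice at postnatal day 30. The knockout mice carried K14Cre, Foxc1 fl/fl and the K14-H2BGFP reporter, and the control mice carried Foxc1 fl/fl and K14-H2BGFP without Cre. Both transgenes use the Krt14 promoter, which is active throughout the basal layer of skin epithelium, so deletion of the forkhead factor gene Foxc1 was not limited to the sorted cells. Cells were sorted as positive for the GFP reporter, CD34 and CD49f and negative for Sca-1. Each genotype was 1 library sequenced in 2 runs, with no biological replicate, and the labels do not state how many mice were used. The series has 1 list of regions for all 4 runs, without score, read count or genotype. No knockout value could therefore be set against a control value, read depth is unknown, and no error can be attached to a single region. All values below describe this one list, and differences between genes were not tested.

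The label of the cells was checked against marker genes. This check was not independent of the sort, because the stem cell list held Cd34 and Itga6, the genes of CD34 and CD49f. That list also held Foxc1, the gene deleted in the knockout mice. All 10 hair follicle stem cell markers had a region within 1 kb of a gene bound (exact 95% interval 69.2 to 100%). So did 4 of 5 basal keratinocyte markers (28.4 to 99.5%), with Trp63 the exception. Among other cell types, such a region was present at 2 of 8 endothelial, 3 of 7 dermal fibroblast, 3 of 6 melanocyte, 2 of 7 immune and 3 of 8 neuron markers. The share over all protein-coding genes was 57.6%, and it lay inside the exact 95% interval of each of these 5 short lists, from 3.19 to 65.1% for endothelial up to 11.8 to 88.2% for melanocyte markers. The interval of the basal keratinocyte list held that share as well. Intervals of shares cover counting error only. A region that is open in few cells of the sort cannot be told apart from one that is weakly open in all of them.

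The 9 genes differed widely. Cdh1, Cdh3 and Ctnnd1 stood in dense groups of regions, Cdh11 and Ctnna1 had slightly fewer than the median gene of like window, Cdh5 had more than its median but only narrow ones, the long genes Ctnna2 and Ctnnd2 had many spread over great lengths, and Cdh2 had none. A region was present in the windows of 8 of the 9 genes, against 91.1% of all protein-coding genes. By density, Cdh3 came first with 11.6 regions per 100 kb of window, then Cdh1 with 9.59, Ctnnd1 with 9.31, Cdh5 with 5.60, Ctnnd2 with 3.76, Cdh11 with 2.76, Ctnna1 with 2.54, Ctnna2 with 2.09 and Cdh2 with 0. The median of the 9 genes was 3.76 regions per 100 kb and that of the other protein-coding genes 3.79. With 1 list there is no spread against which neighbours in this order could be compared.

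**Figure D1:**
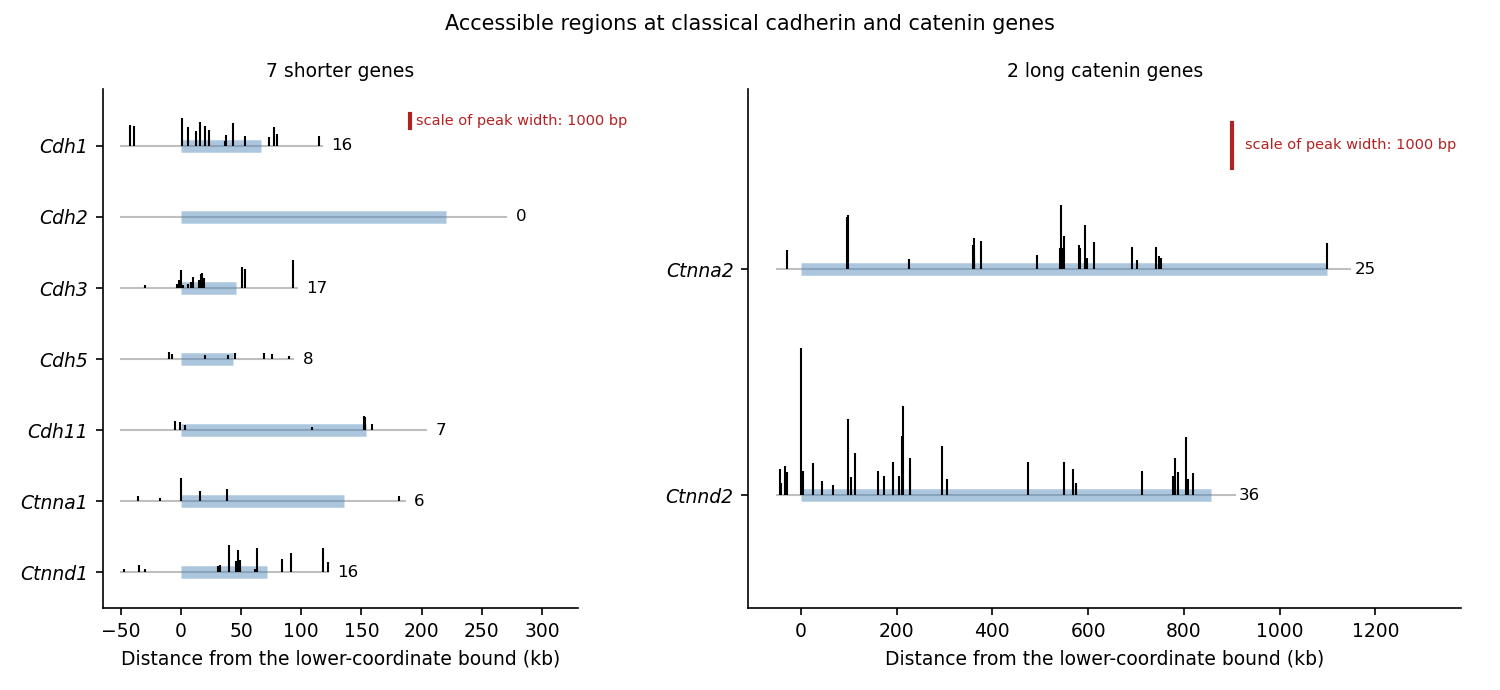
Accessible regions in the windows of the 9 genes, by distance in kb from the lower-coordinate bound of each gene. The blue bar is the gene, the grey line the window, each black line a region with its height in proportion to its width (red scale, 1000 bp), and the number at the right the count of regions in the window, from 0 at Cdh2 to 36 at Ctnnd2.

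A region within 1 kb of either gene bound was present at 6 of the 9 genes (66.7%, exact 95% interval 29.9 to 92.5%), against 57.6% of all 21887 protein-coding genes, which is near the background. Cdh1, Cdh3, Cdh11, Ctnna1, Ctnna2 and Ctnnd2 had one, and Cdh2, Cdh5 and Ctnnd1 did not. At the lower-coordinate bound 5 of the 9 genes had one, against 33.0% of protein-coding genes, and at the upper-coordinate bound 2 of 9, against 32.7%. Cdh11 had one at both bounds, which 8.14% of protein-coding genes share. The regions in the 9 windows had a median width of 549.5 bp, against 587 bp for all other regions, and 44.5% of them reached the median of the list. At ends of protein-coding genes the median was 947.5 bp for the 12 regions in the 9 windows and 1189 bp elsewhere. Those inside protein-coding genes and away from gene ends had a median width of 545 bp in the 9 windows and 566 bp elsewhere. Between protein-coding genes the median was 453 bp in the windows and 473 bp elsewhere, and 26.1% of regions in the windows reached the median of the list, against 38.8% elsewhere.

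**Figure D2:**
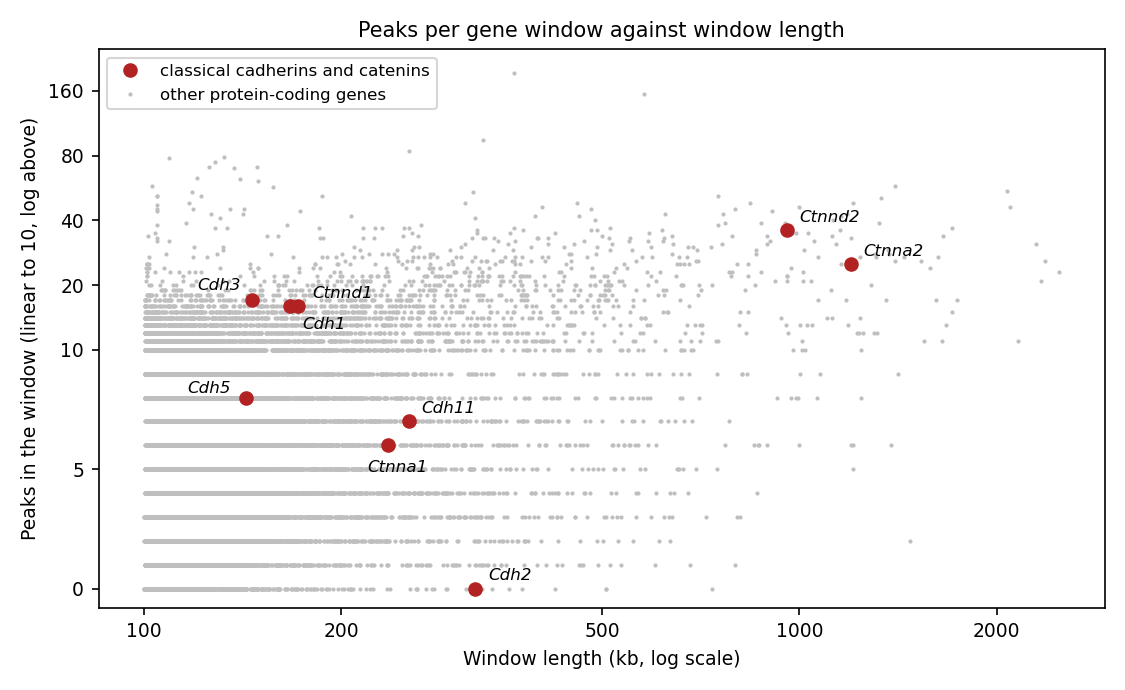
Number of accessible regions in the window of each protein-coding gene (vertical axis, linear to 10 and logarithmic above) against window length in kb (log scale). Grey points are the other protein-coding genes and red points the 9 cadherin and catenin genes; Cdh2 lies at 0, while Cdh3, Cdh1 and Ctnnd1 lie at 16 or 17 regions in windows of 146 to 172 kb.

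Cdh3 encodes P-cadherin, whose loss in humans causes sparse hair with a disease of the retina. It lies on chromosome 8 from 106510852 to 106556911 (mm10), and 17 regions fell in its window of 146 kb. Of 7723 other protein-coding genes with a window within 20% of that length, 98.2% had fewer, with a median of 5 regions. Its lower-coordinate bound lay in a region of 1284 bp, from 106510343 to 106511626. From general knowledge of the mouse genes, and not from the tables used here, this is the end where transcription of Cdh3 and also of Cdh1 starts. Inside the gene 11 regions were found, all with their midpoints within 19.2 kb of that bound, and none in the rest of its 46.1 kb. They were mostly narrow, with a median of 532 bp and a range that began at 200 bp, the smallest width in the list, at 2 regions. With 2 regions just outside the bound, of 313 and 582 bp, they made a run of 13 regions over 22.6 kb, in which neighbours were less than 12.5 kb apart. Only 186 of the 36475 runs and single regions of the list (0.510%) had at least as many.

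Cdh1 encodes E-cadherin, the main adhesion molecule of epithelia. It lies 46.4 kb above Cdh3 on the same chromosome, from 106603350 to 106670247, and 16 regions fell in its window of 167 kb. Of 4496 genes with a like window 96.2% had fewer, with a median of 6. Of the 16 regions, 11 had Cdh1 as their nearest protein-coding gene. Its lower-coordinate bound was covered by a region of 1982 bp from 106603015 to 106604996, wider than 94.9% of all regions and the widest at the locus. The upper quartile for other regions at ends of protein-coding genes was 1687 bp. Inside the gene 10 regions were found. The first 6 of these, counted from the bound, had widths of 1982, 1330, 1055, 1649, 1390 and 1146 bp and formed a run of 23.8 kb. They were all wider than 1000 bp. The others inside were 341, 734, 1585 and 667 bp wide, the last of them 52.8 kb from the bound. Of the 36475 runs and single regions of the list, 4.94% had at least as many regions as the run of 6. Above the gene there were 4 regions of 632, 1342, 869 and 695 bp, of which that of 869 bp, from 106682946 to 106683814, lay at the lower-coordinate bound of Tango6, a gene of transport through the Golgi.

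The tandem genes thus differed more in the width of their regions than in the number. Regions inside Cdh1 had a median width of 1238 bp, and 7 of 10 were wider than 1000 bp. Regions inside Cdh3 had a median of 532 bp, and 2 of 11 were wider than 1000 bp. In sum they covered 11879 bp inside Cdh1 and 6818 bp inside Cdh3. Some regions inside Cdh3 stood close together, such as those from 106512037 to 106512236 and from 106512377 to 106512576. Counts, widths and runs depend on how such neighbours were split or joined, and the effect of joining them was not tested. The ground between the genes held 2 regions, of 1478 bp (from 106560570 to 106562047) and 1367 bp (from 106563393 to 106564759), close above the upper-coordinate end of Cdh3. From there to the region at the lower-coordinate bound of Cdh1 no region was found over 38.3 kb, the longest such stretch in both windows, in which the long non-coding RNA genes 1110028F18Rik and Gm39239 lie. With each region counted once, the joint locus from 106460852 to 106720247 held 30 regions.

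**Figure D3:**
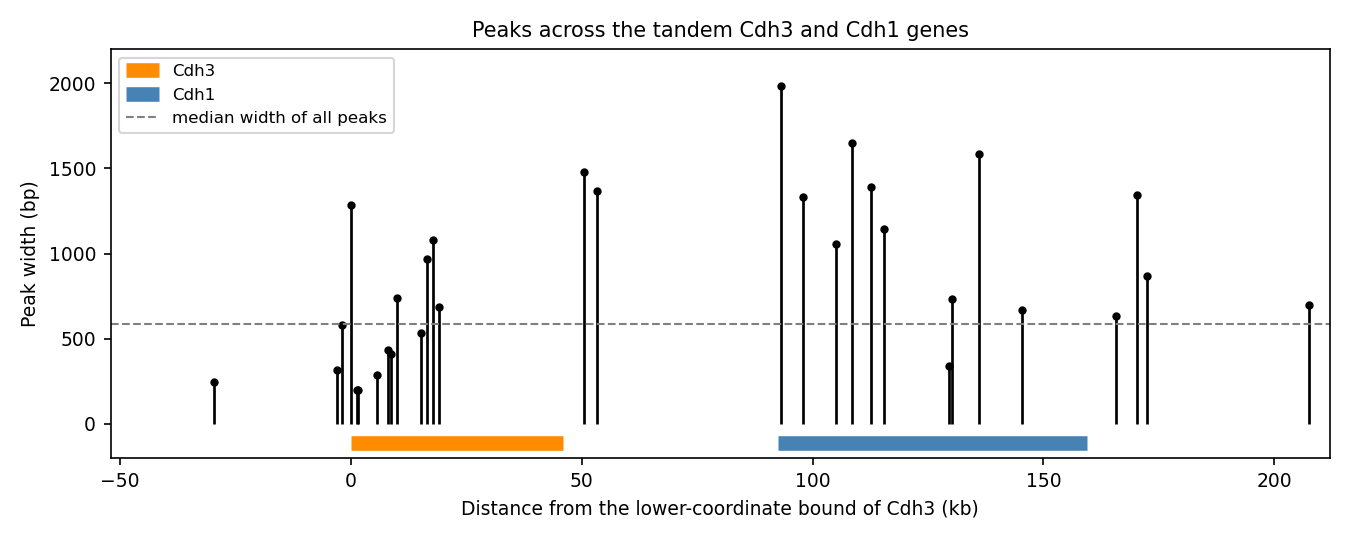
Width in bp of each of the 30 accessible regions at the tandem genes, by distance in kb from the lower-coordinate bound of Cdh3. Bars below the axis mark Cdh3 (orange) and Cdh1 (blue), and the dashed line is the median width of the list, 587 bp; 7 of 10 regions inside Cdh1 exceed 1000 bp, against 2 of 11 inside Cdh3.

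Cdh2, the gene of N-cadherin, which serves in nerve cells, heart and mesenchyme, lies on chromosome 18 from 16588877 to 16809246. Its window of 320 kb held 0 regions, and so did a window with 100 kb on either side. No region at all was found in the window of 1957 of 21887 protein-coding genes (8.94%), but among 774 genes with a window of like length only 15 (1.94%) had none, and their median was 9. The stretch without a region ran for 777.1 kb, from 16217207 to 16994329, reaching 371.7 kb below and 185.1 kb above the gene. Of 74685 stretches between neighbouring regions in the list, 45 were longer, and the median was 11.9 kb. Cdh2 was the only protein-coding gene in it. How well reads can be placed in this stretch was not tested.

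Cdh5 encodes VE-cadherin, the cadherin of endothelial cell junctions, and lies on chromosome 8 from 104101613 to 104144504. Its window of 143 kb held 8 regions, with 70.3% of 8558 genes of like window having fewer. They were all narrow, with widths from 203 to 478 bp, so that none reached the median of the list. Neither bound had a region within 1 kb. Inside the gene there were 2, of 273 and 310 bp, and the nearest one outside, of 453 bp from 104146272 to 104146724, had its midpoint 2.0 kb above the upper-coordinate bound. The widest, of 478 bp from 104091417 to 104091894, lay below the gene in the non-coding gene Gm29682, and another of 390 bp stood 7.7 kb below. Further regions lay in or at Bean1, the next protein-coding gene above. The longest stretch without a region was 39.8 kb. Endothelial markers as a list had a bound region in 2 of 8 cases (exact 95% interval 3.19 to 65.1%, against 57.6% of protein-coding genes), and the part that such cells might have in the sort was not tested.

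Cdh11 encodes a cadherin of osteoblasts and mesenchymal cells and lies on chromosome 8 from 102632095 to 102785493. Its window of 253 kb held 7 regions, and 39.6% of 1367 genes with a like window had fewer. At its upper-coordinate bound there were 2 neighbouring regions of 967 and 890 bp, from 102783731 to 102784697 and from 102784889 to 102785778. At its lower-coordinate bound there was 1 of 557 bp, from 102631031 to 102631587, flanked by regions of 650 and 329 bp. Between these groups only a region of 208 bp was found inside the gene, and the longest stretch without any was 105.3 kb. Dermal fibroblast markers, a list that Cdh11 is not part of, had a bound region in 3 of 7 cases (exact 95% interval 9.9 to 81.6%, against 57.6% of protein-coding genes), and the part of such cells was not tested here either.

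Among the catenins, Ctnnd1 encodes the delta-catenin that is general in epithelia and holds cadherins at the membrane. It lies on chromosome 2 from 84587096 to 84658977 and is read towards lower coordinates. Its window of 172 kb held 16 regions, more than 95.7% of 4072 genes with a like window. Of these regions 3 had the smallest width in the list, 200 bp, and 12 had Ctnnd1 as their nearest protein-coding gene. Inside the gene 9 regions formed a run of 33.5 kb, from 84617798 to 84651262. The widest was of 1954 bp from 84626149 to 84628102, and others were of 1547 bp (from 84633772 to 84635318) and 1720 bp (from 84649543 to 84651262). Of the 36475 runs and single regions of the list, 1.51% had at least as many regions. The part of the gene nearest to its lower-coordinate bound was without regions, in a stretch of 60.3 kb that began outside the gene.

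A region within 1 kb of a listed start was present at all 3 genes whose starts were used, Ctnnd1, Ctnnd2 and Ctnna2, against 58.3% of protein-coding genes with a listed start. RefSeq lists 2 starts for Ctnnd1 in the table used here, and only the inner one lay in an accessible region. The outermost start, at 84658977, had no region within 1 kb, and the nearest ended 7715 bp away. The inner start, at 84650740, is 8237 bp further along the gene and lay inside the region of 1720 bp, which was wider than 71.7% of the 9150 regions that overlap a start window. The start of Btbd18, a gene known from piRNA transcription in mouse testis that is read in the opposite direction, stands 95 bp from the outermost Ctnnd1 start and had no region either. The stretch without a region here ran for 19 kb, from 84651263 to 84670270. It ended at a region of 928 bp at Selenoh and Tmx2, and one of 1386 bp at Tmx2 and Med19 followed further up. These are genes for a selenoprotein, a thioredoxin-related membrane protein and a Mediator subunit. Of 2761 protein-coding genes with 2 or more listed starts, 242 (8.76%) had a region within 1 kb of an inner start and none at the outermost, 1489 (53.9%) had one at both, 355 (12.9%) at the outermost only and 675 (24.4%) at neither. No minimum distance between starts was set, so starts close together can share 1 region and count as both. These shares are therefore no like background for the Ctnnd1 starts, which are 8237 bp apart.

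**Figure D4:**
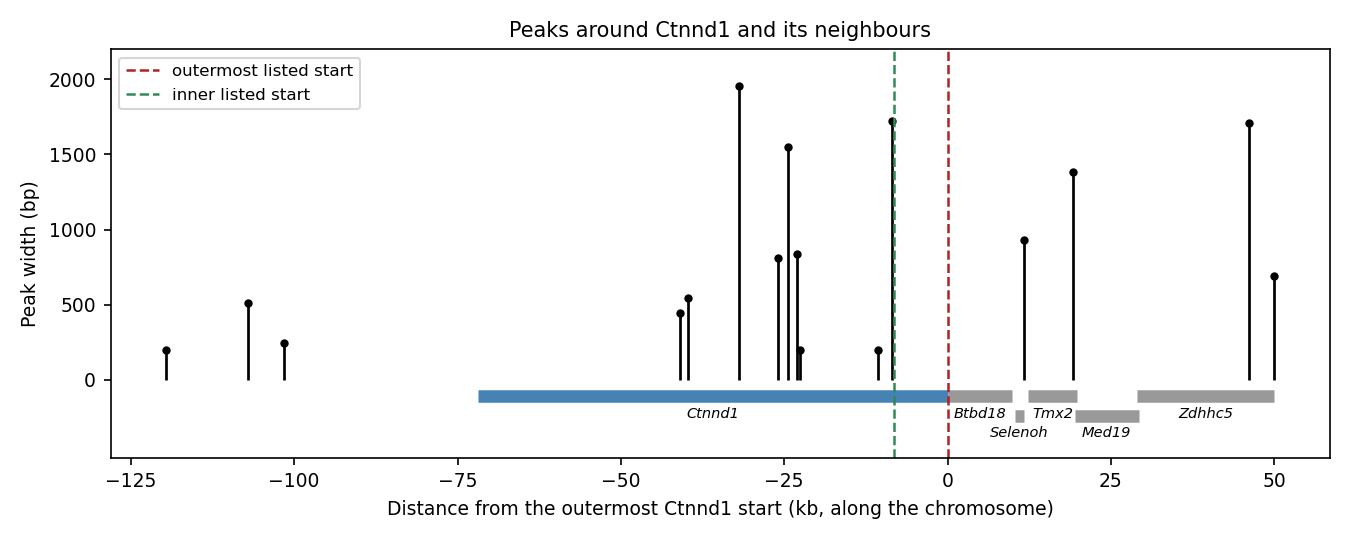
Width in bp of the 16 accessible regions in the window of Ctnnd1, by distance in kb along the chromosome from its outermost listed start (red dashed line). The inner start (green dashed line) falls in a region of 1720 bp, while 19 kb around the outermost start hold none; bars mark Ctnnd1 (blue) and its neighbours (grey, Zdhhc5 cut at the edge of the window).

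The start windows of the catenins are shown to set the Ctnnd1 start without a listed region beside those with one. At unknown depth, lack of a listed region does not show that a start is closed. They are RefSeq sequences on GRCm38.p6, from 250 bases before to 50 after the start, written 5′ to 3′ on the strand of the gene. Capitals mark matches on either strand to the GC box (GGGCGG), the CCAAT box (CCAAT), the TATA box (TATAAA) and the E-box of Snail and Zeb repressors (CACCTG), which are known to bind such boxes before Cdh1. Positions are chr2:84658928-84659227 and chr2:84650691-84650990 for the outermost and inner Ctnnd1 starts and chr6:77979618-77979917 for Ctnna2, all on the minus strand, and chr15:30172284-30172583 on the plus strand for Ctnnd2. The 5 cadherins and Ctnna1 are described by their gene bounds.
Ctnnd1 outermost start: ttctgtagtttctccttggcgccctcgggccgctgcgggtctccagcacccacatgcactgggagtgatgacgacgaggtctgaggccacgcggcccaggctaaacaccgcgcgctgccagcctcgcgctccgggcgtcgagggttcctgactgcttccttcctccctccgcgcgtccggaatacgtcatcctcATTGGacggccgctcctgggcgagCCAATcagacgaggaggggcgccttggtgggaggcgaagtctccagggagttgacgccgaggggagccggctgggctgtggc
Ctnnd1 inner start: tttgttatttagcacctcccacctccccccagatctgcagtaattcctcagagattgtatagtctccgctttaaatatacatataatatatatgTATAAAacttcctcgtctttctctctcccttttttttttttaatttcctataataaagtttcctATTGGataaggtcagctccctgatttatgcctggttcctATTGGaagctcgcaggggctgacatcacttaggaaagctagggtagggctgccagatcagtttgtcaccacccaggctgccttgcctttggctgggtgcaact
Ctnna2 start: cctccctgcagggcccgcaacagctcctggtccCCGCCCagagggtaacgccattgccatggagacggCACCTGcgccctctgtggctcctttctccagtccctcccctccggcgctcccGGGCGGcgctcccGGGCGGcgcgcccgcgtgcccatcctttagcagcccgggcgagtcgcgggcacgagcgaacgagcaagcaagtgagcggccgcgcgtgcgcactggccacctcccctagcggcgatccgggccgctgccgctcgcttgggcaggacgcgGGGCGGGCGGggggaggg
Ctnnd2 start: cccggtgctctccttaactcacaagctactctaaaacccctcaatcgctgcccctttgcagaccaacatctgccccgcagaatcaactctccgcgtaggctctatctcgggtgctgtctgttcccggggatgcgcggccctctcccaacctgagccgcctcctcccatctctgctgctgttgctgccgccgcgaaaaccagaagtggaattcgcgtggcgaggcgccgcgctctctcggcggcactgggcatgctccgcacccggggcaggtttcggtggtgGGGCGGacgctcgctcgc

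Of the 2 Ctnnd1 windows, the one rich in CpG dinucleotides was the one with no region. The outermost window held 30 CpG dinucleotides with 67.7% G and C, more CpGs than 84.6% of the 21263 start windows of protein-coding genes, and no base of it was in a region. The inner window held 3 CpGs with 42.7% G and C, more than 18.1% of windows, and all 300 bases lay in the region. Across protein-coding genes 53.2% of start windows overlapped a region. That share was 8.52% for windows with 0 to 4 CpGs (514 of 6035) and 84.0% for those with 30 or more (2758 of 3283). Each Ctnnd1 window had 2 CCAAT boxes, which 38.2% of all windows hold in either orientation. The inner window also had 1 match to the TATA box word, found in 12.6% of windows. It lies nearer to the 5′ end of the window than to the start, and whether it works as a TATA box was not tested. Neither had a GC box (46.2% of windows) or a Snail and Zeb E-box (19.7%).

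**Figure D5:**
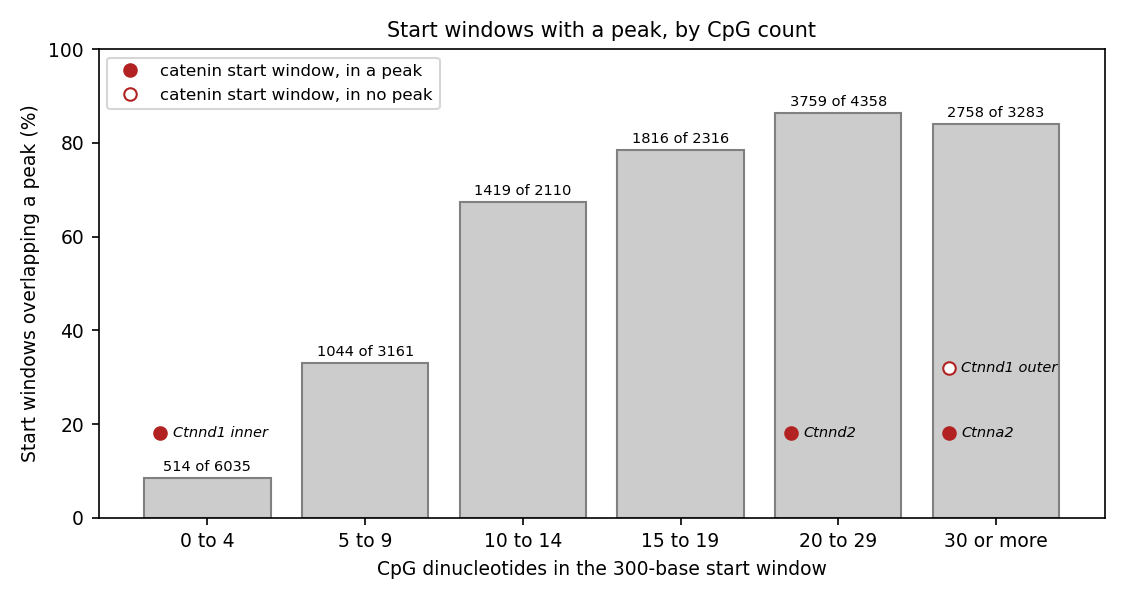
Percentage of the 300-base start windows of protein-coding genes that overlap an accessible region, by number of CpG dinucleotides in the window, with the counts above the bars. Circles place the 4 catenin start windows in their CpG class, filled where the window is in a region and open where it is not, and their height has no meaning; the outermost Ctnnd1 window, with 30 CpGs, is the only open circle.

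Ctnnd2 encodes a delta-catenin best known from nerve cells. It is read towards higher coordinates on chromosome 15 from 30172534 to 31029344, and 36 regions, the most of the 9 genes, fell in its window of 957 kb. Of 79 genes with a like window 89.9% had fewer, and their median was 19. Its start was covered by a region of 3256 bp, from 30171891 to 30175146, the widest in the 9 windows, wider than 99.2% of all regions and than 97.2% of those at start windows. This region also covered a bound of the non-coding gene Gm31953. The start window shown above held 28 CpGs and 1 GC box, and all of it was accessible. With the gene divided into 3 equal parts of 286 kb, the part next to the start held 16 of the 31 regions inside the gene, the middle 5 and the far part 10. Those next to the start included a pair of 1301 and 1981 bp from 30382463 to 30385998 and one of 1685 bp from 30271061 to 30272745. Below the gene 5 regions of 260 to 634 bp formed a run of 14.1 kb. The longest stretch without a region was 169.3 kb, inside the gene.

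Ctnna1 encodes the alpha-catenin of epithelia, which ties cadherins to actin. It lies on chromosome 18 from 35118902 to 35254776, and only 6 regions fell in its window of 236 kb, with 32.7% of 1692 like genes having fewer and a median of 8. Its lower-coordinate bound lay in a region of 1637 bp, from 35118161 to 35119797, shared with the neighbouring gene Gm46617. That region was wider than 90.9% of the list, but below the upper quartile of 1687 bp for other regions at ends of protein-coding genes. Inside the gene there were 2 more, of 750 and 879 bp, 15.7 and 38.6 kb from that bound. No 2 of its regions stood within 12.5 kb of each other. Beyond the last of them 141.8 kb passed without a region, over the rest of the gene and the nested Lrrtm2, up to a region of 346 bp in Sil1. Raw counts for Ctnna1, Ctnnd1, Cdh1 and Cdh3, whose proteins work together in epithelial junctions, were 6, 16, 16 and 17 regions. Their windows differed in length, and 3 regions count for both Cdh1 and Cdh3. With only the regions nearest to each gene, the counts were 3, 12, 11 and 16.

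Ctnna2, the alpha-catenin of nerve cells, is the longest of the 9 genes, at 1098 kb on chromosome 6 from 76881637 to 77979815, and is read towards lower coordinates. Its window of 1198 kb held 25 regions, and 60.6% of 66 genes with a like window had fewer, with a median of 17. A region of 577 bp, from 77979645 to 77980221, covered its start, narrower than most at starts, of which 7.84% were narrower still. It overlapped 273 of the 300 bases of the start window, which held 38 CpGs, 5 GC boxes and 1 Snail and Zeb E-box. From there into the gene no region was found for 345.3 kb. In 3 equal parts of 366 kb, the part next to the start held 4 of the 24 regions inside the gene, the middle 13 and the far part 7, an order unlike that of Ctnnd2. The widest was of 1419 bp from 77423853 to 77425271. Among the others, 5 regions of 202 to 691 bp lay in Lrrtm1, a gene of a synaptic membrane protein that is nested in Ctnna2, and 2 neighbours of 1169 and 1217 bp lay from 76977649 to 76980181. Neuron markers, as a list, had a bound region in 3 of 8 cases (exact 95% interval 8.52 to 75.5%, against 57.6% of protein-coding genes).

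Of the other motifs searched in these 4 windows, the forkhead words TGTTTAC and GTAAACA, AP-1 (TGANTCA), TCF/LEF (CTTTGA) and RUNX (TGTGGT) had 0 matches in each, on either strand. They occur in 3.01, 6.99, 14.4 and 15% of all start windows. Any E-box (CANNTG, which includes the Snail and Zeb form) was found 2 times for Ctnna2, 1 time each for Ctnnd2 and the outermost Ctnnd1 start, and 0 times for the inner one, against 69.0% of windows. The NFAT and ETS core GGAA had 7 matches at the inner and 4 at the outermost Ctnnd1 start, 2 for Ctnnd2 and 0 for Ctnna2, and 95.7% of windows hold it. Matches describe the letters only.

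Other genes of the adherens junction, a list of 61, had a region within 1 kb of a bound in 41 cases (67.2%, exact 95% interval 54.0 to 78.7%), against 57.6% of protein-coding genes. The list was divided by role after its values had been seen, so the counts of the parts are a description and their difference was not tested. Other cadherins, with the related Cdhr1, had one in 6 of 19 cases (31.6%, interval 12.6 to 56.6%), and a median of 1.68 regions per 100 kb. Partners and regulators had one in 35 of 42 cases (83.3%, interval 68.6 to 93.0%), and a median of 5.41. Because the parts were formed with their values known, these intervals are no test against the share of protein-coding genes. The 2 densities were also not matched for window length. Windows of 1028594 bases or more were those of the cadherins Cdh12, Cdh13 and Cdh18 and of the partner Ctnna3. Cadherins without one included Cdh10, Cdh12, Cdh13, Cdh15, Cdh18, Cdh19, Cdh20 and Cdh22, and Cdh22 had 0 regions in its window. Ctnnb1, the gene of beta-catenin, and Jup, the gene of plakoglobin, both had one, with 7 regions each in their windows. By raw count, which grows with window length, Ptpn14, a phosphatase gene, came first with 34 regions, or 13.68 per 100 kb of window. Plekha7, which encodes a partner of Ctnnd1 protein at the junction, and the phosphatase gene Ptprm had 22 each, at 7.72 and 2.79 per 100 kb. Zyx, for the actin regulator zyxin, and Cdh13, which encodes a cadherin without a cytoplasmic tail, had 20 each, at 18.07 and 1.56 per 100 kb. The densities of Ptprm and Cdh13 were below the median of 3.79 over protein-coding genes, but that median is not matched for window length. Their windows were long, at 787644 and 1284913 bases. Genes with a window like that of Ctnna2, of 1198 kb, had a median of 17 regions. Of the repressors of Cdh1 on the list, Snai1, Snai2 and Twist1 had a region at a bound, with 6, 1 and 1 regions in their windows, and Zeb1 and Zeb2 had none there, with 2 and 10.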

How the data were processed

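Accessible regions of hair follicle stem cells were measured by ATAC-seq in 2 genotypes, with 1 library each in 2 runs. The authors deposited 1 list of region coordinates with no other value; the tools named, per the submitters' processing notes, are MACS2, bedtools and Bowtie2, with the build mm10. For versions, settings, Tn5 offset, read filters and pooling of runs: not given in the sources used here. Starts were converted to 1-based positions, and no region was filtered. Columns of per-sample values left unused numbered 0.

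Gene bounds came from a RefSeq table of GRCm38.p6, which shares its chromosome coordinates with mm10; all 9 genes and all 61 listed junction genes matched by symbol. Starts and sequences came from a RefSeq table that held 3 of the 9 genes (4 start windows). A region counted when it shared at least 1 base with a window. Genes had a like window when its length was within 20%; gene density was not matched. Motifs were searched as exact words on both strands in Python 3.11.15 with NumPy 2.4.6, pandas 2.3.3 and SciPy 1.17.1. Counting was tested on simulated regions. No p-value was computed, since the list carries no replicate. The genes, lists and motifs were chosen with earlier results of these data known, and the division of the junction list by role, the comparison of listed starts and the CpG classes were added after the values were seen. All 9 genes were named whatever their values, with the region at a bound, the widest region, the densest run and the longest stretch without one; neighbouring genes were named where a region lay at their ends, and junction genes where they had the most regions or, in alphabetical order, no bound region. Other window sizes, overlap rules and a width limit were tried as alternatives.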

Additional observations from a re-analysis of the deposited data

How the results depend on the processing

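No paired analysis was possible because the list carries no sample. With only regions at or above the median width of 587 bp, the 9 windows held 57 regions in place of 128. The other settings left that count between 94 (gene bounds without extension) and 159 (100 kb on either side). Genes with a region at a bound numbered 5 to 7 under all settings run, in place of 6: Cdh5 was gained with 2.5 kb around bounds, where 63.5% of protein-coding genes passed, and Ctnna2 was lost under the width limit, where 51.6% passed. Of 36 counts per gene under other settings, 23 stayed within 1.5 times the reported one. The rest moved with window size or with assignment to the nearest gene, as for Cdh5, with 2 regions in the gene itself and 15 with 100 kb. Cdh2 had 0 in every setting run. Region width is the only measure that the list gives, and whether it follows signal strength could not be tested. Weak regions cannot be told from low depth.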
